A study of Mus musculus with 24 samples.

Results

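The miRNAs numbered miR-1892 to miR-1971 were examined on a mouse miRNA microarray. A miRNA was taken as a member of this block when its number lay in that range, with any letter or arm, and 72 of the 1881 miRNAs on the array met the rule. They came from 57 precursor names, and for 15 precursors both arms (the 5p and the 3p product of the hairpin) were on the array.

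A miRNA is a short RNA cut from a folded precursor by Drosha and Dicer and loaded onto an Argonaute protein, where its seed, bases 2 to 8, pairs with target transcripts. miRBase gives out the numbers in the order of registration, so a run of neighbouring numbers shares its time of discovery rather than its sequence, locus or function. Few of these miRNAs have an established role in the liver, whose dominant miRNA is the hepatocyte product miR-122-5p.

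Liver was taken from 3 male mice (numbered 7, 10 and 9; age and strain of these animals are not given in the sources used here), and 8 RNA preparations of each liver were hybridized, 1 array each, giving 8 groups of 3 arrays. Total RNA including small RNAs was isolated with a miRNeasy kit from tissue preserved at once (0 h) or left for 96 h at room temperature, each with and without an on-column DNase step that removes genomic DNA. The RNA integrity number (RIN, 10 for intact RNA on the manufacturer's scale) was 8.8 to 9.0 at 0 h and 2.3 to 2.5 at 96 h. From a further 0 h piece, RNA depleted of small RNAs was isolated with an RNeasy kit with DNase (RIN 9.2 to 9.4). Of this depleted RNA, 3 µg was incubated for 30 min at 37 °C with 0 U RNase (RIN 9.0 to 9.2), 0.026 U (partially degraded, RIN 6.0 to 7.0) or 0.67 U (fully degraded, RIN 2.4 to 2.9) and isolated again with the miRNeasy kit without DNase. Each mouse had a slide of its own, scanned once with its 8 arrays, so mouse and slide cannot be told apart. For mouse 9 the title and the description of the 2 RNase arrays name opposite doses, and the description, which the RIN values follow, was used.

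Signals are background-subtracted intensities summed over the probes of a miRNA and can fall below 0. Different probes can bind differently, so signals of different miRNAs do not give their relative amounts. They are given in the order mouse 7, mouse 10, mouse 9. Changes are differences of normalized signal on a generalized log2 scale (glog2), in which 1 unit is about a 2-fold change for bright miRNAs but can be less for signals near 0. For a miRNA not detected on any array of the dimmer group, a lower limit of the fold change is therefore added. Summed over detected miRNAs, the signal of an array was 55237 to 163493 at 0 h, 187378 to 362324 at 96 h, 7125 to 10043 in depleted RNA without RNase and 36325 to 177642 after RNase. The normalization multiplied the 96 h arrays by 0.306 to 0.478 and the others by 0.918 to 1.91, so raw signals at 0 h and 96 h are not directly comparable, and a rise in raw signal can disappear after normalization. Of 11 marker miRNAs of liver cell types, 10 or 11 were detected on each 0 h array, 5 to 8 on each 96 h array and 5 or 6 on each depleted array, and miR-122-5p was detected on every array (6767 to 13686 at 0 h, 3030 to 6117 at 96 h, 1982 to 5146 in depleted RNA). The RNA was of bulk liver, in which fewer cells of a type and less RNA per cell cannot be told apart.

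The mature sequences of 56 members were matched by name to RefSeq (GRCm38.p6) and are written 5′ to 3′ with the seed in capitals. The first set is shown because these 11 members were called higher both in stored liver and after RNase treatment, under the normalization used. Among them, miR-1930-3p was detected on no RNase-treated array, and the changes of miR-1906 turned under some other scalings.
miR-1892: aUUUGGGGacgggagggaggau
miR-1894-3p: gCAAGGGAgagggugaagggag
miR-1895: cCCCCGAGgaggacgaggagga
miR-1896: cUCUCUGAuggugggugaggag
miR-1904: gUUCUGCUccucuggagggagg
miR-1906: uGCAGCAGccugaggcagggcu
miR-1930-3p: gGUGCAGUuacuguggcugugg
miR-1931: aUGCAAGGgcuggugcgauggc
miR-1934-3p: aGGAUGACgguggggcugguga
miR-1945: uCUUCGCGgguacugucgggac
miR-1967: uGAGGAUCcuggggagaagaugc
The second set is shown because these 3 members were higher at 96 h when the DNase step was left out.
miR-1894-5p: cUCUCCCCuaccaccugccucu
miR-1943-3p: cAGGUGCCagcuccucccuuc
miR-1947-3p: gCACUGAGcuagcucucccucc
The third set holds a member that rose in stored liver but not after RNase (miR-1964-3p), a member detected after RNase but not in stored liver (miR-1969), and the member with the highest signal in fresh liver (miR-1897-3p).
miR-1964-3p: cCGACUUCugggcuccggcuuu
miR-1969: aAGAUGGAgacuuuaacaugggu
miR-1897-3p: uCAACUCGuucuguccggugag

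None of the 56 sequences shared its seed with another member, and 9 shared it with a miRNA outside the block. Purines (A and G) made up a median of 63.6% of the bases in the 11 members of the first set (range 45.5% to 90.9%), against 50% in the 1608 miRNAs of the array with a sequence and 54.8% in the 526 of these that were tested. The run GAGG, read on the mature strand and chosen after the sequences were seen, occurred in 7 of these 11, in 13.9% of the 1608 and in 23% of the 526. Of the 56 members 14 (25%) held it, among them 7 that were not tested, 4 of these detected on no array. GGGG or CCCC occurred in 4 of the 11 (36.4%), which was close to the 35.9% of the tested miRNAs. The second set was pyrimidine-rich, with purines at 13.6% in miR-1894-5p, 28.6% in miR-1943-3p and 31.8% in miR-1947-3p. miR-1964-3p, also tested, had 31.8% purines too and was not called when DNase was left out at 96 h (change 0.77). All 3 members of the second set hold CUCCC, also chosen after the sequences were seen, which occurred in 5 of the 56 members and in 4.04% of the 1608 miRNAs (5.7% of the 526). The remaining 2 members with CUCCC, miR-1941-3p and miR-1966-3p, were detected on no array. These are descriptions of sets that were formed from the signals, without a test.

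In fresh liver few members of the block were detected. With DNase, 6, 8 and 8 members were detected at 0 h in mice 7, 10 and 9, and 8 in each mouse without DNase, which is a mean of 10.2% and 11.1% of the block against 15.9% and 16% of all miRNAs on the array. The 6 members detected in all 3 mice with DNase were miR-1895, miR-1897-3p, miR-1904, miR-1906, miR-1947-3p and miR-1949, and miR-1894-3p and miR-1897-5p were added without DNase. Their signals were low. miR-1897-3p gave 22.7, 21.1 and 22.8, miR-1904 8.36, 12.6 and 9.92 and miR-1906 9.6, 10.7 and 10.1. The remaining 3 lay between 3.25 and 7.85.

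In liver stored for 96 h the number of detected members rose to 31, 23 and 33 with DNase and to 25, 23 and 27 without. On average 19.3 more members were detected per array at 96 h than at 0 h in the same mouse (SD 3.79, n = 3). As a share of the block this was 40.3% with and 34.7% without DNase, against 34.2% and 33.1% of all miRNAs. In RNA depleted of small RNAs 7, 9 and 8 members were detected, after incubation with 0 U RNase 6, 9 and 7, with 0.026 U 10, 10 and 18, and with 0.67 U 13, 17 and 15. In this order the means were 11.1%, 10.2%, 17.6% and 20.8% of the block, close to 10.8%, 11.4%, 16.6% and 18.9% of all miRNAs. Stored and RNase-treated RNA thus held more detected members than the intact RNA beside it in every mouse, as was so for all miRNAs. The summed signal of the detected members took 0.0491% to 0.101% of all detected signal at 0 h and 1.22% to 1.55% at 96 h. In depleted RNA it took 0.413% to 0.779% without RNase and 0.297% to 0.529% with RNase.

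**Figure D1:**
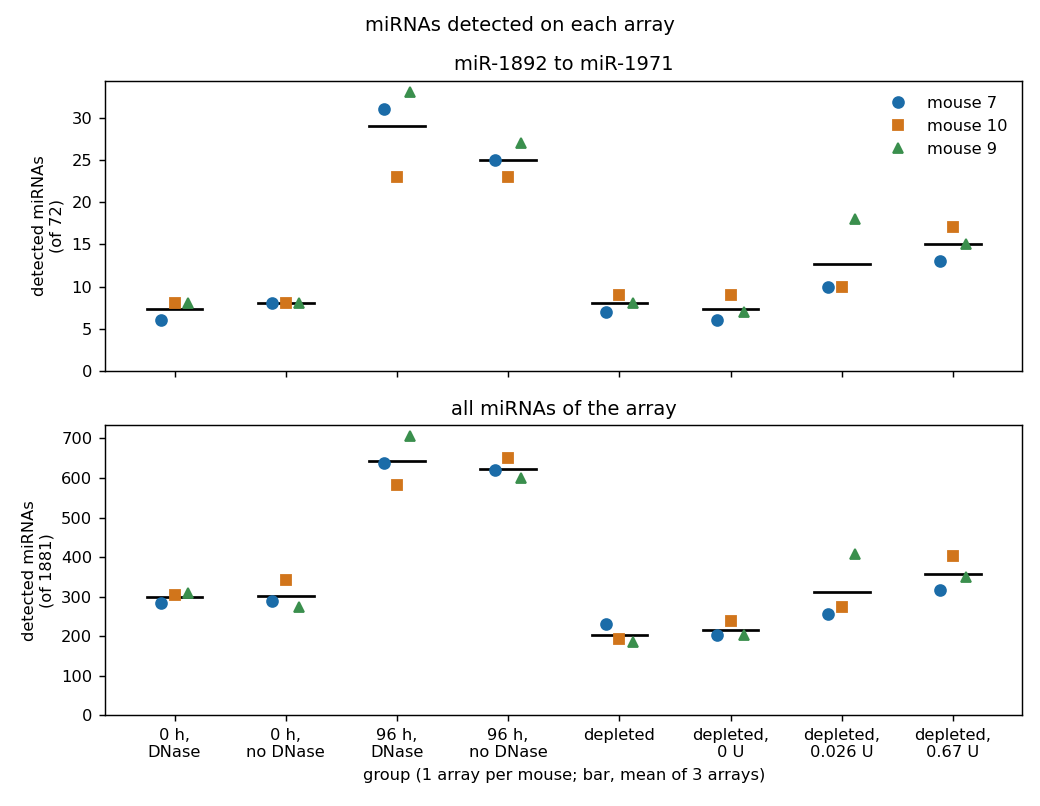
Number of detected miRNAs on each array (vertical axes) in the 8 groups (horizontal axis), for the 72 members of the block (top) and all 1881 miRNAs (bottom). Symbols are mice and bars are means of 3 arrays; the block rises from 6 to 8 members at 0 h to 23 to 33 at 96 h, and to 10 to 18 after RNase.

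Tests covered the 24 members with a detection flag on 5 or more of the 24 arrays (33.3% of the block, 33.5% of the array). Of the other 48, 36 were detected on no array, with signals from -3.13 to 4.88, and 12 on 1 to 4 arrays. Just inside this limit, on 5 arrays, lay miR-1927, miR-1930-3p and miR-1957a. Just outside it, on 4 arrays, lay miR-1929-5p, miR-1932, miR-1957b, miR-1960 and miR-1966-5p, whose detections were on 96 h arrays apart from 1 array of miR-1932.

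**Figure D2:**
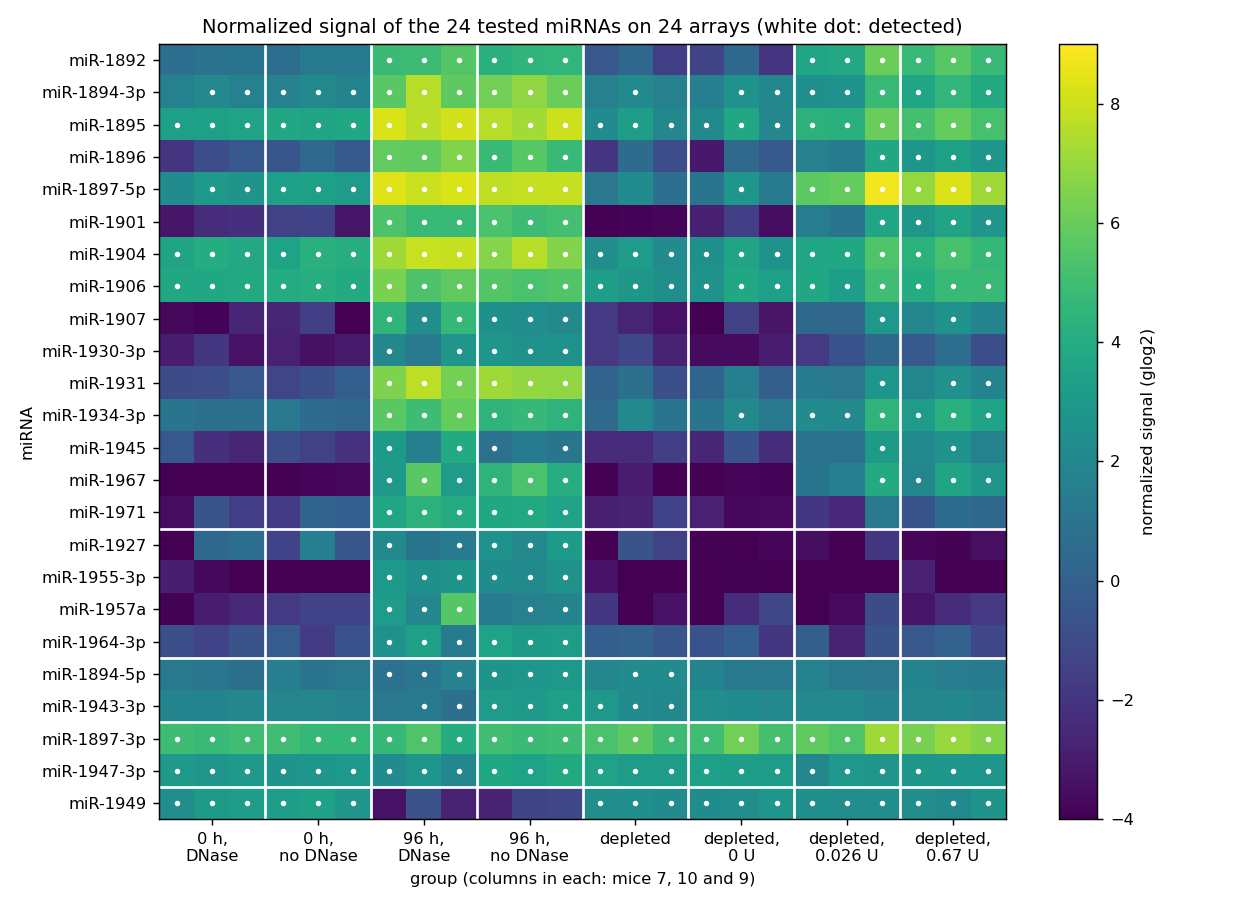
Normalized signal (colour, glog2) of the 24 tested members (rows) on the 24 arrays (columns, ordered by group and then mouse), with white dots on arrays where the member was detected. Rows are ordered by their calls: 15 members higher with storage and RNase, 4 higher with storage alone, 2 higher with storage only where DNase was left out, 2 without a storage or RNase call, and miR-1949, which was detected everywhere except on the 96 h arrays.

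Storage raised most of the tested members. With DNase, 19 of 24 members were called higher at 96 h (adjusted p under 0.05 and a change of at least 1), and 1 was called lower. Without DNase 21 were called higher and 1 lower. Across all 631 miRNAs tested, 60.4% were called higher and 21.6% lower with DNase, and 60.5% and 23% without. The median change of the members was 4.61 with DNase and 3.88 without, beside 2.47 and 2.16 over all miRNAs tested. All these called members went the same way in 3 of 3 mice. Of the 19 risers with DNase, 14 were not detected on any 0 h array with DNase, with lower limits of the fold change from 1.43 to 56.4, and 5 were detected there, with changes from 2.03 to 5.53. The lowest limit was that of miR-1927, whose change of 2.71 with DNase (6.83, 0.68 and 0.61 in the single mice) was 0.65 without mouse 7 (adjusted p = 0.54). Of the 24 tested members, 6 were detected on 96 h arrays only and passed the limit of 5 arrays through them, so for these a rise with storage followed from the limit. miR-1894-5p, miR-1896, miR-1901, miR-1907, miR-1931, miR-1943-3p, miR-1945 and miR-1967 had fewer than 5 detections outside the 96 h arrays. They too passed the limit only with the 96 h arrays, so their storage calls were not free of it.

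miR-1897-5p had the highest signal of the block in stored liver. Its signal was 2.93, 5.75 and 4.21 at 0 h with DNase and 940, 515 and 1006 at 96 h, and 6.9, 7.9 and 5.74 against 513, 669 and 507 without DNase. The groups were far apart in both preparations, with changes of 5.53 ± 0.61 (SE; adjusted p = 7.6e-08) with DNase and 4.53 ± 0.61 (adjusted p = 1.1e-06) without. miR-1895 rose from 6.86, 7.85 and 7.35 to 856, 412 and 899 with DNase (4.59 ± 0.46, adjusted p = 2.5e-08), and miR-1904 from 8.36, 12.6 and 9.92 to 398, 502 and 755 (3.80 ± 0.43, adjusted p = 1e-07). These 3 members had the highest mean signals of the block at 96 h and were detected at low signal in fresh liver, miR-1897-5p there in 2 of 3 mice with DNase. miR-1894-3p, with 1.82, 2.64 and 1.79 at 0 h, reached 141, 410 and 180 (4.51 ± 0.52, adjusted p = 1.2e-07).

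A second group of risers had no detected signal in fresh liver. miR-1931 lay between -0.578 and -0.0551 on all 0 h arrays and reached 251, 430 and 255 with DNase and 340, 341 and 248 without, at least 56.4-fold and at least 59.3-fold higher (7.61 ± 0.51, adjusted p = 2.2e-10, and 7.72 ± 0.51, adjusted p = 2.5e-10). miR-1896 went from -0.531, -0.466 and -0.0382 to 168, 116 and 304 with DNase (at least 33.9-fold; 7.20 ± 0.77, adjusted p = 4.8e-08). miR-1934-3p went from 0.916, 0.533 and 0.69 to 144, 63.3 and 196 (at least 22.4-fold; 4.64 ± 0.51, adjusted p = 6.8e-08). That none of these 0 h arrays overlapped the 96 h arrays follows in part from the choice of called members. miR-1892 followed with 0.633, 0.707 and 0.937 against 82.3, 60.5 and 147 (at least 16.5-fold; 4.17 ± 0.59, adjusted p = 1.6e-06), and miR-1901 with -0.752, -0.818 and -0.482 against 115, 58.2 and 90.1 (at least 16-fold; 7.59 ± 0.60, adjusted p = 1.5e-09).

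The largest change with DNase on the glog2 scale, 8.32 ± 0.76 (adjusted p = 6.8e-09), belonged to miR-1967, whose signal was -0.96, -1.44 and -0.924 at 0 h and 20.8, 104 and 29 at 96 h with DNase. Its lower limit was a 7.7-fold rise, because its 0 h signals were below 0 and the limit is set against the dimmest detected miRNA. miR-1971 (33.9, 41.3 and 51.7 at 96 h, at least 8.01-fold), miR-1907 (63, 9.9 and 82.8, at least 7.34-fold) and miR-1957a (23.4, 7.16 and 156, at least 6-fold) were likewise not detected at 0 h. For miR-1957a the stored livers differed widely among themselves. miR-1955-3p was detected in all stored livers (20.1, 10.8 and 20 with DNase; 10.7, 11.3 and 11.9 without), but only by the brighter of its 2 probes: the dimmer probe exceeded 3 times its error on 0 of 24 arrays.

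miR-1949 was the only member called lower with storage (under the normalization used; other scalings called up to 5 lower with DNase). It was detected on all 0 h arrays, with 3.25, 6.03 and 6.2 with DNase and 6.54, 8.1 and 4.31 without, and on no 96 h array, where its signal was -1.99, -0.306 and -1.47 with DNase and -1.35, -0.475 and -0.586 without. It was at least 6.82-fold lower with DNase (-5.19 ± 0.48, adjusted p = 9.3e-09) and at least 7.67-fold lower without (-4.95 ± 0.48, adjusted p = 1.7e-08). The 36 members detected on no array had a median signal of -0.874 on the 96 h arrays with DNase, within the range of miR-1949 there. In depleted RNA miR-1949 remained detected on all 12 arrays, at 2.4 to 4.35, and neither depletion (-0.50, adjusted p = 0.56) nor RNase (-0.07, adjusted p = 0.95) gave a call. Of the 2 probes of miR-1949, 1 exceeded 3 times its error on 18 arrays and the other on only 4.

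Stored livers were not alike in how many members they showed. With DNase, 34 members were detected at 96 h in at least 1 mouse, 21 of them in all 3 mice, and 10 in mice 7 and 9 but not in mouse 10. These 10 were miR-1893, miR-1927, miR-1929-3p, miR-1930-3p, miR-1932, miR-1943-5p, miR-1945, miR-1956, miR-1957b and miR-1962. miR-1956, for example, gave 51.5 and 14 in mice 7 and 9 and 2.73 in mouse 10, and miR-1962 9.74 and 27 against 0.709. The array of mouse 10 also had the lowest summed signal of the 3 (199478 against 245927 and 362324), and the part of that in these detections was not tested. Without mouse 10 the count of calls with DNase was again 19 higher and 1 lower.

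How many members rose depended on the scaling of the arrays. The median change over all miRNAs in storage with DNase was 4.82 when arrays were scaled to their spike-in controls and 0.39 when the normalization was fitted on the tested miRNAs only. The members split into 23 higher and 1 lower under the first and 16 higher and 5 lower under the second, and into 17 higher and 4 lower after quantile normalization. Of the 19 members called higher with DNase, 16 kept the call under each of 12 alternatives (5 scalings, the deposited table, the mouse as a block, no filter, only the compared groups, and each mouse left out). miR-1906, with 9.6, 10.7 and 10.1 at 0 h and 235, 83.8 and 187 at 96 h, was among those that did not: its change of 2.03 ± 0.38 (adjusted p = 5.6e-05) became -0.02 after quantile normalization.

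miR-1897-3p, the opposite arm of miR-1897-5p, also shows the weight of the scaling. Its raw signal went from 22.7, 21.1 and 22.8 to 74, 87.1 and 52.1 with DNase, which after normalization was a change of -0.19 (adjusted p = 0.66). miR-1897-5p, from the same hairpin, changed by 5.53 on the same arrays.

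Arms of a precursor often behaved apart. miR-1894-3p reached 141, 410 and 180 at 96 h with DNase and miR-1894-5p 3.68, 3.08 and 9.9. miR-1934-3p reached 144, 63.3 and 196 while miR-1934-5p stayed below 0 on these arrays and was detected on no array at all. miR-1930-3p (10.2, 3.5 and 20.9, detected in mice 7 and 9), miR-1955-3p and miR-1964-3p (15.5, 20.7 and 7.42) were detected at 96 h, and their 5p arms were detected on no array. For miR-1943 the 5p signal was 18.6, 4.85 and 36.2 and varied between mice, and the 3p signal, 5.04, 3.83 and 4.4, did so less. These values show in which arrays each arm was detected and how each changed, not which arm was the more abundant.

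**Figure D3:**
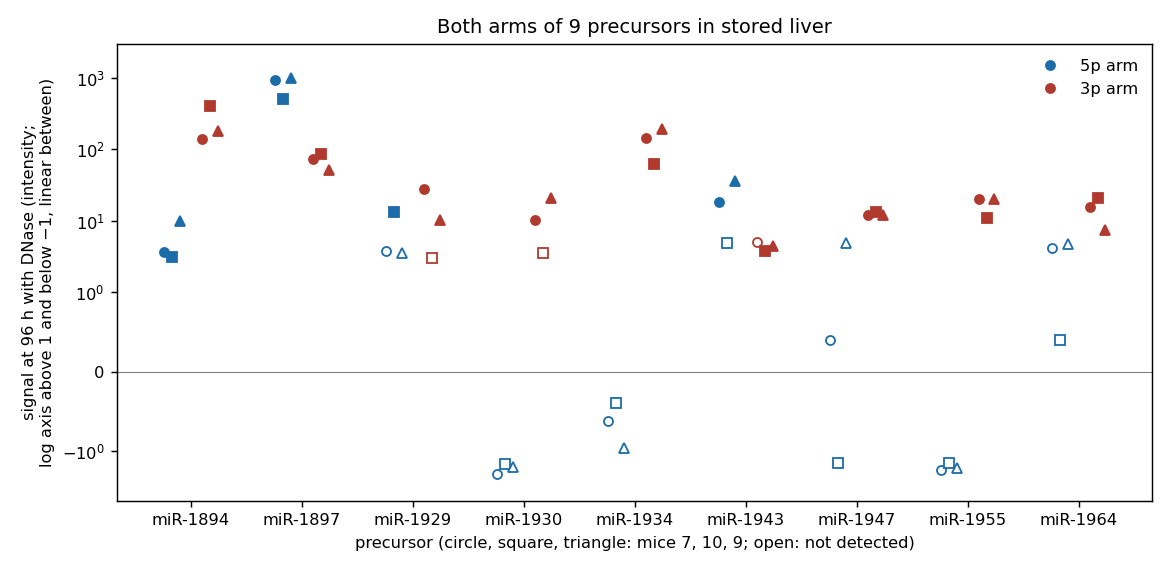
Signal at 96 h with DNase (vertical axis, intensity, logarithmic above 1 and below -1) of the 5p (blue) and 3p (red) arms of 9 precursors, 1 symbol per mouse, open where not detected. The 5p arms of miR-1930, miR-1934, miR-1947, miR-1955 and miR-1964 were not detected in any mouse, while their 3p arms were detected in all 3 mice, or in 2 of 3 for miR-1930.

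RNA isolated without the DNase step, which can hold genomic DNA, was compared with RNA isolated with it. In fresh liver no member was called: 0 of 24 passed in either direction, 0 had an unadjusted p under 0.05, and 0% of all miRNAs were called higher or lower by limma. An exact rank test also called 0, but with groups of 3 its p cannot go below 0.1. In stored liver 3 members were called higher without DNase and 0 lower, beside 6.18% and 4.6% of all miRNAs. With the normalization fitted on the tested miRNAs the split was 3 higher and 1 lower.

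These 3 were miR-1943-3p, miR-1894-5p and miR-1947-3p, the second set of sequences shown above. miR-1943-3p gave 5.04, 3.83 and 4.4 with DNase and 20, 21.2 and 21.1 without (2.05 ± 0.24, adjusted p = 2.9e-05). miR-1894-5p gave 3.68, 3.08 and 9.9 with and 14.5, 19 and 15.3 without (1.58 ± 0.28, adjusted p = 0.00069), and miR-1947-3p 12, 13.5 and 12.1 with and 31.8, 31.1 and 31.4 without (1.36 ± 0.25, adjusted p = 0.00086). In all 3 members and all 3 mice the array without DNase was the brighter. This follows in part from their choice by the same comparison on the same arrays, and is no separate support. Without mouse 7 only miR-1943-3p kept its call, and miR-1947-3p also lost it without mouse 9 (1.11, adjusted p = 0.14). The opposite arms were not called: miR-1943-5p, detected on too few arrays to be tested, gave 18.6, 4.85 and 36.2 with DNase and 3.27, 5.71 and 3.45 without, and miR-1894-3p had a change of 0.04 (adjusted p = 0.96).

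The storage change of 2 of these members differed with the DNase step. miR-1943-3p had a storage change of -0.80 (adjusted p = 0.0043, under the limit of 1) with DNase and of 1.32 ± 0.24 (adjusted p = 4.1e-05) without, and the difference of 2.12 ± 0.34 passed its own test (adjusted p = 0.0029). For miR-1947-3p the changes were -0.55 and 0.92, and their difference was 1.47 ± 0.35 (adjusted p = 0.042). With the mouse as a replicate block the latter difference had an adjusted p of 0.055, and only miR-1943-3p was called. Without mouse 7 or without mouse 9 neither was called (miR-1943-3p 2.23, adjusted p = 0.45, and 1.75, adjusted p = 0.2). These 2 were the only members called for this difference (2 higher, 0 lower), beside 0.951% and 0.158% of all miRNAs. For miR-1894-5p, called higher with storage without DNase (1.56 ± 0.28, adjusted p = 2.7e-05; 0.18 with DNase), the difference of 1.38 was not called (adjusted p = 0.076).

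**Figure D4:**
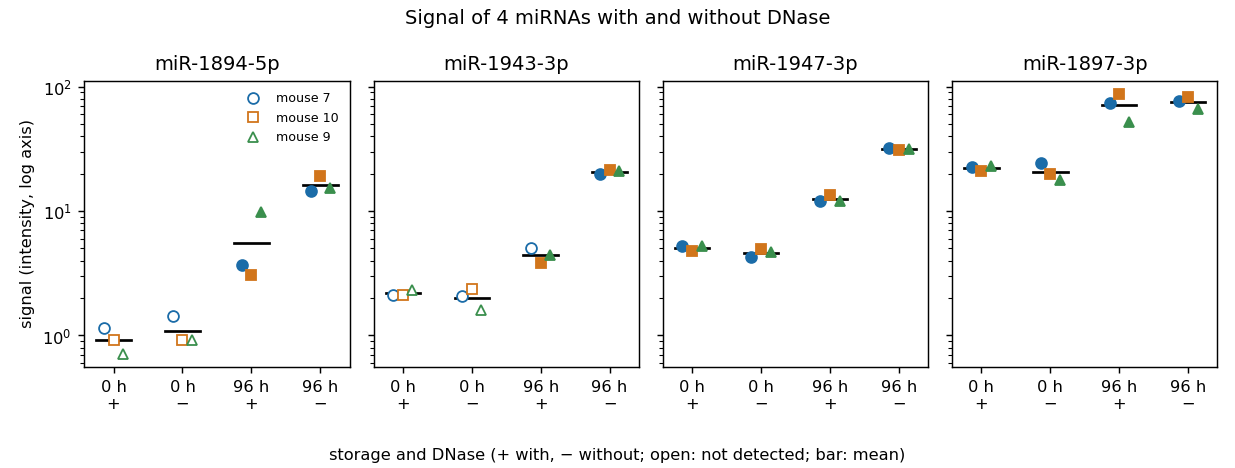
Signal (vertical axis, intensity, log axis) of miR-1894-5p, miR-1943-3p, miR-1947-3p and, for comparison, miR-1897-3p at 0 h and 96 h with (+) and without (−) DNase; symbols are mice, open where not detected, and bars are means. At 96 h the first 3 miRNAs, which were chosen by this comparison, are higher without DNase in every mouse, while miR-1897-3p overlaps (52.1 to 87.1 with and 66.6 to 81.7 without).

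Depletion of small RNAs, which was compared with the same 0 h arrays with DNase that served the storage comparison gave few calls in the block. Of the 24 members, 1 was called higher and 1 lower, beside 5.39% and 24.4% of all miRNAs, and the median change was 0.02 for the members and -0.17 for all. miR-1904 fell from 8.36, 12.6 and 9.92 to 3.11, 5.79 and 2.58 (-1.22 ± 0.43, adjusted p = 0.036). miR-1894-5p rose from 1.15, 0.918 and 0.71, not detected, to 2.17, 2.64 and 2.6, detected in 2 of 3 mice (at least 2.11-fold; 1.12 ± 0.28, adjusted p = 0.0028). The call of miR-1894-5p held under each of the 5 other scalings. It was lost with normexp, a background correction that compresses low signals (0.43, under the limit of 1). The call of miR-1904 was lost under most scalings. Its change was -1.31 (adjusted p = 0.058) with spike-in scaling, -0.49 after quantile normalization and -0.73 with the normalization fitted on the tested miRNAs. The call was also lost without the detection filter. Its change turned to 0.75 when scaled to the 75th percentile of the miRNAs detected on all arrays. That scaling called 9 members higher and 9 lower, against 1 and 4 at the 75th percentile of all miRNAs, 4 and 2 after quantile normalization and 2 and 0 with the normalization fitted on the tested miRNAs. Without mouse 9 no member was called, without mouse 7 only miR-1894-5p, and without mouse 10 there were 3 calls, all lower.

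For scale, miR-192-5p, a hepatocyte miRNA outside the block, went from 619, 842 and 926 to 29.4, 17 and 28.8 with depletion. miR-1897-3p, at 26.3, 41.3 and 20.7 in depleted RNA, was not called (0.42, adjusted p = 0.56), and miR-1947-3p, at 7.15, 5.71 and 5.7, likewise gave no call (0.36, adjusted p = 0.35).

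Mock incubation with 0 U RNase was compared with the same depleted RNA as above. Of the 24 members, 0 were called higher or lower by limma (2 had an unadjusted p under 0.05, and the exact rank test called 0), beside 0.158% and 1.58% of all miRNAs.

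RNase treatment of depleted RNA raised 15 of the 24 members and lowered 0, beside 44.7% higher and 0% lower of all miRNAs. Their median change was 1.58 against 0.69 for all. The comparison takes both doses together against the 0 U arrays of the mock comparison, and each riser went up in 3 of 3 mice. Under other scalings the members split into 16 higher and 0 lower (spike-in controls), 13 and 4 or 13 and 2 (75th percentile of the miRNAs detected on all arrays or of all miRNAs), 12 and 3 (quantile) and 8 and 6 (normalization fitted on the tested miRNAs, where the median over all miRNAs was -0.49). Without mouse 9 the count was 9 in place of 15. Of the 15, 8 kept their call under each of the same 12 alternatives: miR-1892, miR-1895, miR-1896, miR-1897-5p, miR-1901, miR-1907, miR-1945 and miR-1967. The other 7 were miR-1894-3p, miR-1904, miR-1906, miR-1930-3p, miR-1931, miR-1934-3p and miR-1971, and all but miR-1930-3p lost their call without mouse 9.

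miR-1897-5p showed the strongest signal after RNase. It gave 0.418, 3.43 and 0.721 with 0 U, 34.2, 37.1 and 454 with 0.026 U, and 94.3, 340 and 89.3 with 0.67 U (5.37 ± 0.53, adjusted p = 1e-07). miR-1892 went from -0.765, 0.108 and -0.582 to 7.68, 8.18 and 67.6 and to 20.8, 52.8 and 17 (at least 10.8-fold; 5.79 ± 0.51, adjusted p = 2.1e-08). miR-1895 went from 2.11, 7.06 and 1.46 to 12.7, 11.3 and 66.9 and to 27.3, 65.9 and 23.1 (2.51 ± 0.40, adjusted p = 2.6e-05). Both of the latter were detected on all 6 treated arrays.

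miR-1967 (at least 2.2-fold; 6.80 ± 0.65, adjusted p = 7.4e-08), miR-1896 (at least 2.41-fold; 3.61 ± 0.67, adjusted p = 0.00012) and miR-1901 (at least 2.29-fold; 5.23 ± 0.52, adjusted p = 1.1e-07) were detected on 4 of 6 treated arrays, with all 3 arrays at 0.67 U among them. miR-1904 rose by 1.60 ± 0.37 (adjusted p = 0.0012), miR-1934-3p by 1.83 ± 0.44 (adjusted p = 0.0016) and miR-1894-3p by 1.56 ± 0.45 (adjusted p = 0.0063). miR-1931, at 251 to 430 in stored liver with DNase, reached 0.708 to 6.28 after RNase (1.37 ± 0.44, adjusted p = 0.014), and its call was lost without mouse 7 (1.34, adjusted p = 0.15) and without mouse 9 (0.85, adjusted p = 0.18). miR-1930-3p and miR-1971 were called higher but were detected on 0 of the 6 treated arrays and on 0 of the 3 arrays with 0 U, so no fold change is given. miR-1897-3p gave 37.2, 26.5 and 145 and 60.6, 138 and 60.6 against 21.1, 41.4 and 18.3, a change of 0.91 (adjusted p = 0.038) under the limit of 1.

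Every member called higher with RNase was also called higher with storage in both DNase states (15 of 15), and these were 78.9% of the 19 members that storage raised in both states. Over all 631 miRNAs tested the same shares were 90.8% (256 of 282) and 71.3% (256 of 359), so the overlap is given as a description and not as a trait of the block. The storage and RNase comparisons use different arrays but share the detection limit. Of the 15, miR-1896, miR-1901, miR-1907, miR-1930-3p, miR-1931, miR-1945, miR-1967 and miR-1971 passed the limit only with the 96 h arrays. miR-1969, detected after RNase only, did not pass it. The overlap was thus in part set by the limit. The 4 members raised by storage without an RNase call were miR-1927, miR-1955-3p, miR-1957a and miR-1964-3p, and none of them was detected on any of the 6 treated arrays. All their detections were on 96 h arrays, through which alone they passed the limit of 5 arrays, so their storage calls and their lack of detection elsewhere were set by that limit. miR-1964-3p, with 15.5, 20.7 and 7.42 in stored liver with DNase, lay between -0.711 and 0.247 after RNase (0.10, adjusted p = 0.94). That a member was called in the storage comparison and not in the RNase comparison was not tested as a difference.

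**Figure D5:**
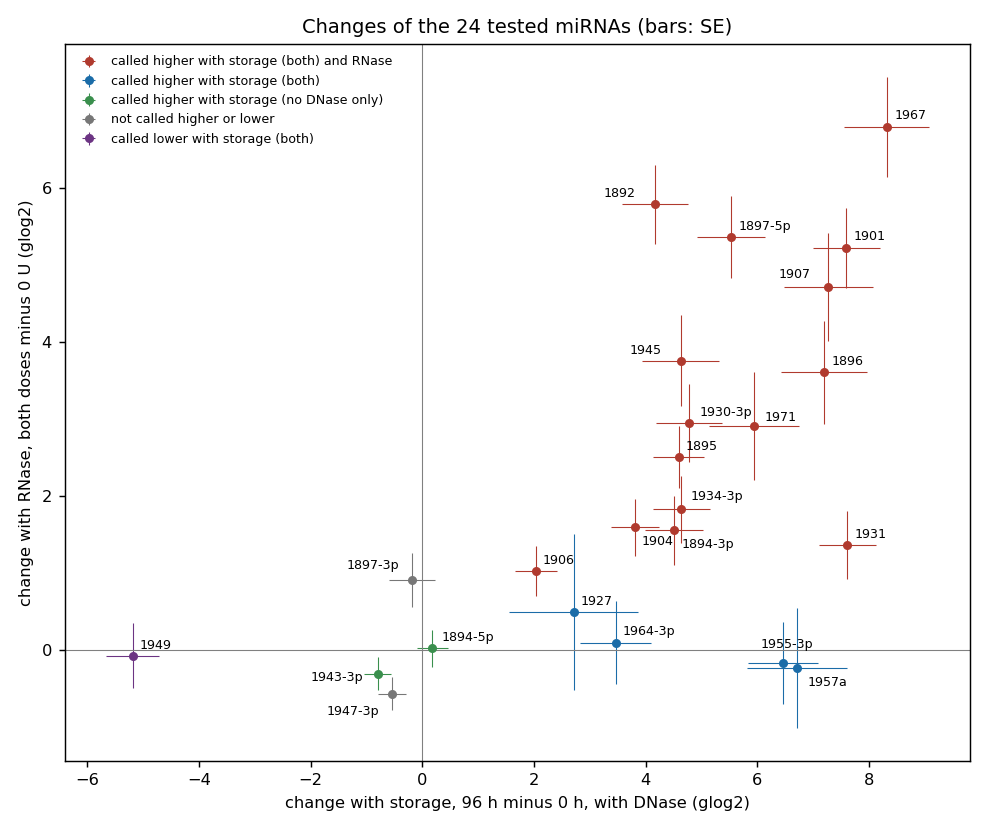
Change with storage with DNase (horizontal axis, glog2) against change with RNase (vertical axis, glog2) of the 24 tested members, with SE bars and colours for the calls; labels are the miRNA numbers. The 15 members called in both lie to the upper right, the 4 raised by storage alone lie near an RNase change of 0, and miR-1949 alone lies far to the left.

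miR-1969 did the reverse, though it was detected on too few arrays to be tested. It gave 1.1, 0.915 and 10.5 with 0.026 U and 3.19, 6.39 and 3.89 with 0.67 U, detected on 3 of these 6 arrays, and -1.66 to 0.401 on the 96 h arrays, where it was never detected. With 0 U it lay at -1.06, -0.572 and -0.634. Both of its probes gave similar signals (5.42 and 5.08 on the brightest array).

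Between the doses no member was called (0 of 24 higher or lower by limma, 0 at an unadjusted p under 0.05, 0 by the exact rank test), beside 0% of all miRNAs. Mice 7 and 10 were brighter with 0.67 U and mouse 9 with 0.026 U: miR-1897-5p, for instance, rose from 34.2 to 94.3 and from 37.1 to 340 between the doses in mice 7 and 10, and was 454 with 0.026 U and 89.3 with 0.67 U in mouse 9. The whole array of mouse 9 followed this order (summed signal 177642 with 0.026 U and 70313 with 0.67 U, 408 and 349 miRNAs detected), while the RIN did not (6.0 and 2.4). With the doses of mouse 9 taken from the titles, 1 member was called.

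Of the 9 members that share a seed with a miRNA outside the block, 2 also share further bases with a well-known miRNA. miR-1961 shares its seed and its first 11 bases with let-7a-5p, and miR-1928 shares its first 10 bases with miR-221-3p, so they are shown with those miRNAs.
miR-1961: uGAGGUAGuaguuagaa
let-7a-5p: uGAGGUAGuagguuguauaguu
miR-1928: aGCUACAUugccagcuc
miR-221-3p: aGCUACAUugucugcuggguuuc
miR-1961 was detected on 0 of 24 arrays (-3.13 to -1.05) while let-7a-5p was detected on all (53.3 to 1108). miR-1928 was detected on 0 of 24 arrays (-0.326 to 0.506) and miR-221-3p on 19 (2.13 to 18.4).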

How the data were processed

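The authors hybridized 24 Agilent mouse miRNA arrays and deposited the Feature Extraction output, in which each miRNA has a summed background-subtracted intensity, its error and a detection flag, and a log2 table normalized by variance stabilization (vsn). Here the intensities of all 1881 miRNAs were normalized by a vsn fit written in Python 3 (glog2 values, 7 rounds, 90% kept), which differed from the deposited log2 table by an SD of 0.0956. miRNAs detected on at least 5 arrays (631) were fitted with limma 3.58.1 in R 4.3.3 (8 group means, trended eBayes, two-sided, Benjamini-Hochberg over all 631); a call needed an adjusted p under 0.05 and a change of at least 1. The fit was tested on simulated data. Same-numbered replicates come from the same mouse; the correlation of arrays of a mouse about their group means was 0.0536 (duplicateCorrelation), and the fit with the mouse as a block was an alternative. p-values measure the spread of arrays about their group means, pooled over the 8 groups and adjusted by the eBayes step. Each group held 1 array from each of 3 mice, so differences between mice, slides, preparations and arrays were not separated in this spread. Apart from the alternative with the block, the fit took arrays of a mouse as independent. This included the arrays of both RNase doses from the same depleted RNA.

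Lower limits of fold changes compare the bright group's mean with, per array, the higher of the dimmest detected miRNA and the member's own value. Named members were those detected in all 3 fresh livers with DNase, the called members with the 8 largest changes per comparison, both arms of their precursors, members beside the detection limit and the brightest per group; others were added where a count called for it. The members and lists were chosen with earlier results of these data known. The number of arrays limits the precision. Array scalings, background correction, filter, block, samples, test and mice left out were varied.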

Additional observations from a re-analysis of the deposited data

Results flagged for a closer look

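The storage change of 2 members passed the test of its difference between RNA isolated with and without DNase. For miR-1943-3p the change without DNase exceeded that with DNase by 2.12 (glog2, higher in 3 of 3 mice). For miR-1947-3p it did so by 1.47, again in 3 of 3 mice. This difference is made up of the DNase changes at 96 h and at 0 h, so those changes are no separate support for it. Both members had the higher signal without DNase at 96 h and showed no call for DNase at 0 h. Neither call held in every alternative: both were lost without mouse 7 and without mouse 9, at the upper quartile of the whole array, after quantile normalization and with normexp. That of miR-1947-3p was also lost with the mouse as a replicate block (adjusted p = 0.055), with spike-in scaling, at the upper quartile of the always-detected miRNAs and with only the compared groups fitted. The part of co-purified DNA in these values was not tested.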

How the results depend on the processing

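Of the 64 called changes of members, recomputed 971 times under the alternatives, 729 kept direction and call, 230 kept the direction but lost the call and 12 turned. Normexp background correction (offset 50), which compresses low signals, left 3 calls for storage with DNase, 3 for storage without DNase, 0 for DNase omission at 96 h, 1 for depletion, 2 for RNase and 0 for the difference of the storage changes. Without the detection filter, storage gave 51 calls with DNase (37 higher, 14 lower) and 48 without (36 and 12), over 72 members. Of these 72, 48 were detected on fewer than 5 arrays, 36 of them on none. Both counts of calls therefore included members that were detected on no array. The median change was 1.36 for the members with DNase and 1.36 without, beside -0.00 and 0.15 over all 1881 miRNAs. The shares of all miRNAs called in this setting are not given, so these counts cannot set the block apart from the array. The exact rank test gave 0 calls in every comparison of groups after adjustment and, before it, 0 except 12 for RNase; 3 arrays against 3 cannot pass 0.05. Depletion gave 18 calls at the upper quartile of the always-detected miRNAs, 5 at that of the whole array, 6 after quantile normalization and 4 with only the compared groups fitted. The difference of the storage changes gave 1 call with spike-in scaling, 1 at the upper quartile of the always-detected miRNAs, 0 at that of the whole array, 0 after quantile normalization, 1 with the replicate block and 1 with only the compared groups. The block changed no other count by over 1.5 times. With the titles' doses for mouse 9, 1 member was called between doses.

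Leaving out a mouse gave 19 to 20 calls for storage with DNase, 21 to 23 without, 1 to 4 for DNase omission at 96 h, 0 to 3 for depletion, 9 to 16 for RNase and 0 to 2 for the difference of the storage changes, and 0 for the other comparisons. The rise in detected members per array stayed within the spread between mice under both other detection rules and without each mouse.

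Turned changes were those of miR-1906 in storage with DNase (-0.02, quantile), in storage without DNase (-0.21 at the upper quartile of the whole array, -0.01 quantile, -0.07 normalization fitted on the tested miRNAs, -0.03 normexp) and with RNase (-0.16 at the upper quartile of the always-detected miRNAs, -0.35 quantile, -0.12 normexp). In storage without DNase miR-1894-5p (-0.20), miR-1943-3p (-0.36) and miR-1945 (-0.16) turned with the normalization fitted on the tested miRNAs. In depletion miR-1904 turned (0.75) at the upper quartile of the always-detected miRNAs. The cause was not tested. Signals within a few units of 0 limit the fold changes of members undetected in fresh liver.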

Other observations

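Of 44 hairpins of the block with a position in RefSeq (GRCm38.p6), 36 lay within the span of another gene, 28 of them on that gene's strand and 5 only on the opposite strand. Among the members raised by storage and RNase, the hairpins of miR-1892 (Sptssa, a subunit of the enzyme that starts sphingolipid synthesis), miR-1894 (Ppp1r10, a regulatory subunit of protein phosphatase 1), miR-1904 (Pde4d, a cyclic AMP phosphodiesterase) and miR-1967 (Urb2) lay on the strand of a gene, that of miR-1896 lay on the strand of 4930470G03Rik and opposite to Zscan26, those of miR-1897 (Sox2ot), miR-1930 (Ube2g2) and miR-1931 (Cdk17) lay within a gene with the relative strand not given, that of miR-1895 lay opposite to Cxxc4, and those of miR-1934, miR-1945 and miR-1971 lay within no gene listed. The hairpins of miR-1943 (Tmem184b) and miR-1947 (Lmln) also lay on the strand of a gene.

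Both arms of miR-1948 were detected on 0 of 24 arrays and were not tested. The 3p arm nevertheless gave 0.546, 0.516 and 1.41 at 0 h with DNase and 0.841, 1.14 and 1.29 without, against -1.86, -1.57 and -1.3 and -1.68, -1.83 and -1.43 at 96 h, and -1.28 to 0.00343 in depleted RNA, so that its fresh arrays lay above all others. Among the 30 members detected on 3 or more arrays, the brightest and dimmest probe differed at least 3-fold on the brightest array in 4. These were miR-1955-3p (14.1-fold), miR-1904 (5.16-fold), miR-1894-3p (3.49-fold) and miR-1934-3p (3.04-fold), so most of their signal there came from 1 probe. In miR-1957b the dimmer probe was below 0 on its brightest array.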
